A study of Mus musculus with 84 samples.

Results

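Cell cycle and DNA replication genes were followed in the liver of 84 male B6C3F1 mice given 1 of 3 organophosphate pesticides (OPP) in the diet for 7 days. The genes were 40 symbols picked by name, from the origin licensing proteins to the kinases of mitosis. The rule names symbols and sets no measured value, but it was written with earlier results of these data known. Of these, 39 were found among the 17695 genes of the count table, and 26 of them had a median count above 8 over all mice, the limit for testing, which 10415 genes of the table passed. The other 13 (Mcm4, Mcm5, Cdc6, Gins2, E2f1, E2f8, Uhrf1, Ccnb1, Ccnb2, Mki67, Aurka, Bub1 and Bub1b) had lower medians, and Stmn1 was not analysed here.

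The mice were 8 weeks old and formed 12 groups of 7: a control group (0 ppm), fenthion (FT) at 2.5, 5, 10 and 20 ppm, methidathion (MT) at 10, 25, 50 and 100 ppm, and parathion (PT) at 20, 40 and 80 ppm. Parathion is a diethyl organophosphate, and fenthion and methidathion are dimethyl ones. RNA came from pieces of frozen liver, so that each value is an average over all cell types in the piece, and the assay was TempO-Seq, which ligates a pair of detector oligos on each targeted transcript and sequences the amplified product. Within a group, 2 mice came from experimental block 1, 3 from block 3 and 2 from block 4. RNA of 77 mice was isolated at Expression Analysis (EA) and RNA of 7 mice at the EPA (2 control mice, 1 of MT 10 ppm and 2 each of FT 20 ppm and of MT 100 ppm). Total counts per mouse lay between 6950381 and 15300589. Levels are given as CPM, the share of a gene in the scaled total count of its mouse, and they were compared between mice for 1 gene at a time, since the signal of a detector oligo pair cannot be set against that of another gene.

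A cell that divides passes through G1, S, G2 and M phase. In G1 the D cyclins with Cdk4 and then the E cyclins with Cdk2 release the E2F factors, which switch on genes of the replication machinery. The MCM proteins form the helicase that is loaded on origins with the help of Cdc6 and Cdt1 and started by Cdc45 and the GINS complex, while ribonucleotide reductase, thymidylate synthase and thymidine kinase supply deoxynucleotides. Cyclin A2 acts in S and G2 phase, and the B cyclins with Cdk1 drive mitosis, in which the Aurora and Polo kinases, survivin and the checkpoint proteins sort the chromosomes. Most hepatocytes of an adult liver rest outside the cycle, but the liver keeps the capacity to divide again after loss of tissue.

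At PT 80 ppm, members of the mitosis list were lower than in control mice, with Top2a, Cdc20, Aurkb and Birc5 between 2.17-fold and 6.27-fold lower, and the helicase subunit Mcm2 was 2.32-fold lower. Cyclin A2 (Ccna2) was 2.83-fold lower and cyclin D2 (Ccnd2) 1.43-fold lower. In the opposite direction, thymidine kinase (Tk1) was 3.36-fold higher and the ribonucleotide reductase subunit Rrm2 had a fitted 2.79-fold higher level, which rested on few mice: 2 of 7 lay below the control range, and without PT 80 ppm mouse 1 the log2 value was 0.70 and the call was lost (adjusted p = 0.070, edgeR). In all, 9 of the 26 tested members changed (edgeR's quasi-likelihood test, Benjamini-Hochberg adjusted p under 0.05 over all tested genes), 7 of them lower and 2 higher. Of all tested genes 18.6% changed in this comparison, with 8.89% lower and 9.73% higher. The median log2 fold change of the members was -0.27, beside 0.0054 over all tested genes, and 19 members had a negative and 7 a positive fitted value. Bulk RNA does not tell fewer dividing cells from less RNA per cell. The paper states that an earlier report on the same exposure study found no significant effect on liver cell proliferation after 7 days. By the same account, PT significantly lowered body weight and relative liver weight at 80 ppm and at the next lower dose. How these measures relate to the RNA levels was not tested.

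**Figure D1:**
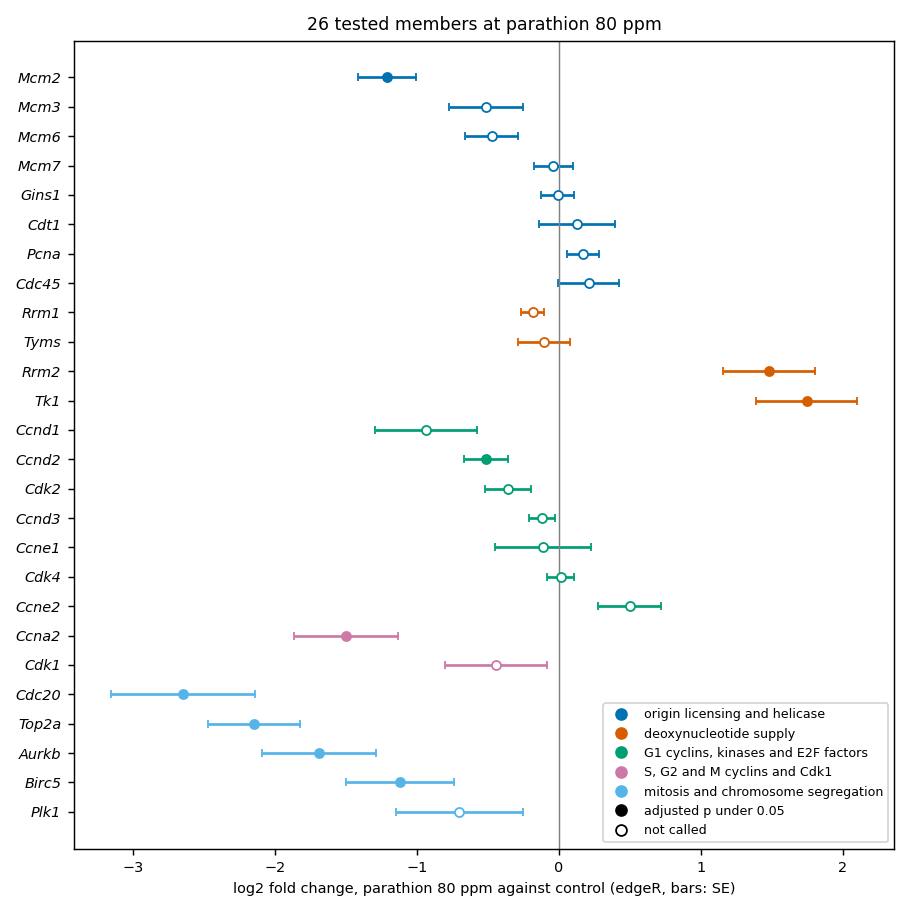
Log2 fold change of the 26 tested members at PT 80 ppm against control (x axis, edgeR fit, bars are SE), ordered by role, with filled points for adjusted p under 0.05. The mitosis members lie to the left, from -2.65 for Cdc20 to -0.70 for Plk1, while Tk1 (1.75) and Rrm2 (1.48) stand to the right of all others.

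Of the mitosis and chromosome segregation list, 4 of 5 tested members changed at PT 80 ppm, all lower, with a median log2 fold change of -1.69. Top2a (chromosome 11, 98883769 to 98915062 of GRCm39) encodes the topoisomerase that untangles sister chromatids and is highest in G2 and mitosis. The lowest, median and highest of its levels were 2.02, 2.75 and 4.72 CPM in control mice, 1.80, 2.63 and 4.24 CPM at PT 20 ppm, 1.24, 1.82 and 2.42 CPM at PT 40 ppm, and 0.0817, 0.817 and 1.24 CPM at PT 80 ppm. Every mouse at PT 80 ppm lay below every control mouse, while the PT 40 ppm mice overlapped both. The log2 fold change was -2.15 at PT 80 ppm (SE 0.324, adjusted p = 8.35e-07, edgeR) and -0.77 at PT 40 ppm (SE 0.284, adjusted p = 0.445, edgeR), and the counts behind the levels were 19 to 51 in control mice and 1 to 16 at PT 80 ppm.

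Cdc20 (chromosome 4, 118290098 to 118294610), the activator of the anaphase promoting complex, had 0.368, 1.38 and 2.08 CPM (lowest, median and highest) in control mice and 0, 0.218 and 0.413 CPM at PT 80 ppm. Only the lowest control mouse lay within the PT 80 ppm range. The difference of -2.65 on the log2 scale (SE 0.505, adjusted p = 7.17e-05, edgeR) rests on counts of 0 to 5 at PT 80 ppm, against 5 to 25 in the control group. Aurkb (chromosome 11, 68936467 to 68944764), the kinase of the chromosomal passenger complex, fell from 0.757 to 1.49 CPM in the control group to between 0 and 0.661 CPM at PT 80 ppm, again without overlap, with -1.69 on the log2 scale (SE 0.402, adjusted p = 0.00137, edgeR). At PT 40 ppm its median was 0.537 CPM, beside 1.17 CPM in control mice, but this comparison was not called. Birc5 (survivin, of the same complex) had medians of 1.49 and 0.627 CPM in the control and PT 80 ppm groups, and its highest PT 80 ppm mouse, at 1.74 CPM, lay within the control range of 0.841 to 1.86 CPM. Its log2 fold change was -1.12 (SE 0.379, adjusted p = 0.0283, edgeR). Without control mouse 1, 2 or 4, or without PT 80 ppm mouse 1 or 5, its adjusted p lay between 0.0513 and 0.0808. The Polo kinase Plk1 had medians of 0.637 and 0.313 CPM and was not called (log2 fold change -0.70, adjusted p = 0.292, edgeR).

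**Figure D2:**
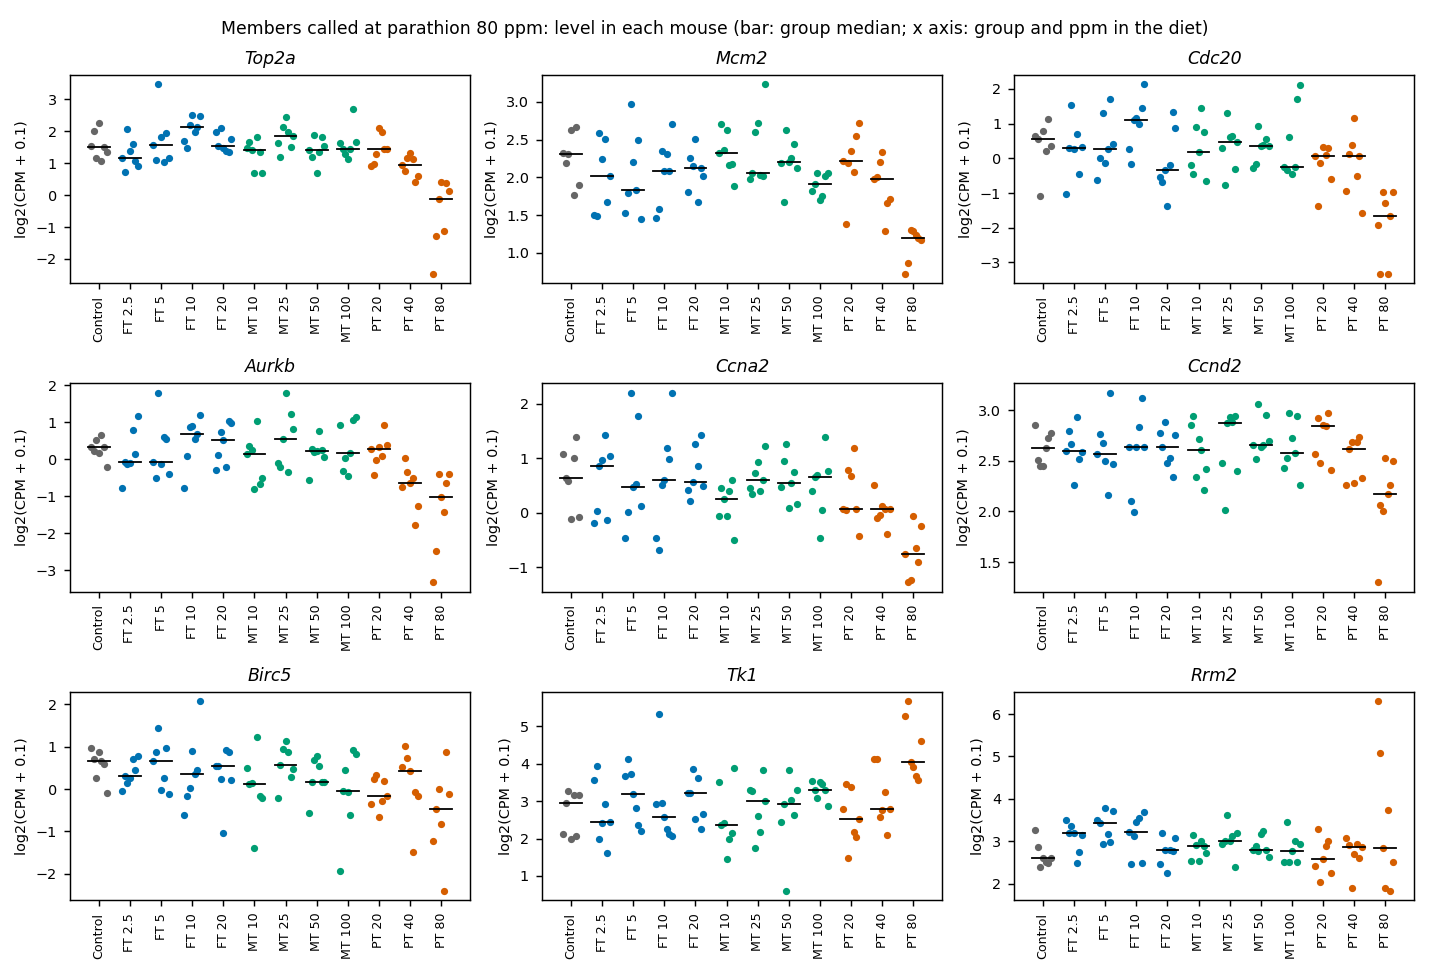
Level of the 9 members called at PT 80 ppm in each of the 84 mice, as log2(CPM + 0.1) (y axis), by group (x axis, FT, MT and PT with the ppm in the diet; bars are group medians, 7 mice each). The PT 80 ppm mice lie below all control mice for Top2a, Mcm2 and Aurkb and above all of them for Tk1, while for Rrm2 the PT 80 ppm mice spread from 3.49 to 78.9 CPM.

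The S, G2 and M phase cyclins and Cdk1 had 2 tested members. Ccna2 (chromosome 3, 36619014 to 36626299), cyclin A2, had 0.822, 1.46 and 2.50 CPM in control mice, 0.666, 0.951 and 1.33 CPM at PT 40 ppm and 0.313, 0.490 and 0.855 CPM at PT 80 ppm. The control and PT 80 ppm ranges met only at their edges, and the log2 fold change was -1.50 (SE 0.367, adjusted p = 0.00187, edgeR). Cdk1, the kinase of the mitotic cyclins, had medians of 0.767 CPM in control mice and 0.654 CPM at PT 80 ppm and was not called (log2 fold change -0.44, SE 0.360, adjusted p = 0.431, edgeR).

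The 13 members under the count limit were described from their counts. Mki67, whose protein coats mitotic chromosomes and is the usual mark of cycling cells, had 4 to 12 counts per mouse in control mice and 0 to 3 at PT 80 ppm, where 2 mice had none. In CPM this was 0.336, 0.834 and 1.13 (lowest, median and highest) in control mice, 0.143, 0.429 and 0.721 at PT 20 ppm, 0.0794, 0.280 and 0.951 at PT 40 ppm and 0, 0.0899 and 0.245 at PT 80 ppm. The Mki67 medians of the FT and MT groups, between 0.361 and 0.673 CPM, were also all below the control median, so a median below control was not particular to PT. Cyclin B1 (Ccnb1) had 4 to 13 counts in control mice, between 0 and 11 at PT 40 ppm and between 0 and 2 at PT 80 ppm, where 5 of 7 mice had none. For both genes, the control and PT 80 ppm mice did not overlap. These were 2 of the 13 members under the limit, and among the 26 above it 3 were lower (Top2a, Mcm2 and Aurkb) and 1 higher (Tk1) in every PT 80 ppm mouse. Such separation was found for 1.29% of all tested genes (0.778% lower and 0.509% higher). The share among genes under the limit was not computed, so the 2 of 13 have no share to be set against.

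When edgeR was run with no limit on low counts, 6 of these 13 changed at PT 80 ppm, all lower, beside 3.25% of the 7268 genes under the limit. They were Mki67 (log2 fold change -2.75, SE 0.572, adjusted p = 0.000408), Ccnb1 (-3.48, SE 0.775, adjusted p = 0.00104), Ccnb2, which encodes cyclin B2 (-1.82), Aurka, the Aurora kinase of the spindle poles (-1.28), Bub1, a spindle checkpoint kinase (-1.71), and the helicase subunit Mcm5 (-1.85). Mcm5 was not lower at PT 80 ppm alone. It had -1.24, -0.85, -1.43 and -0.71 at FT 2.5, 5, 10 and 20 ppm. At MT 10, 25 and 100 ppm it had -0.60, -1.63 and -1.37, and none of these FT and MT values was called. With so few counts, these fitted values depend on how the fit treats counts of 0. The others were not called (adjusted p between 0.146 and 0.905, edgeR): the helicase subunit Mcm4 (-1.01), the GINS subunit Gins2 (-0.92), the activating factor E2f1 (-0.98), the repressing factor E2f8 (-1.57), the spindle checkpoint protein Bub1b (-1.20) and Uhrf1 (-0.20), which maintains DNA methylation behind the fork. In all, 12 of the 13 had a lower fitted value at PT 80 ppm, and Cdc6, a loader of the helicase with 0 to 3 counts per mouse in the control and PT groups, had a higher one.

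The origin licensing and helicase list had 8 tested members, of which 1 changed. Mcm2 (chromosome 6, 88860452 to 88875762) had 3.29, 4.85 and 6.25 CPM in control mice, 2.51, 4.54 and 6.48 CPM at PT 20 ppm, 2.33, 3.85 and 4.92 CPM at PT 40 ppm and 1.55, 2.18 and 2.37 CPM at PT 80 ppm. All PT 80 ppm mice were below all control mice, and the spread of the PT 80 ppm group was narrow (log2 fold change -1.21, SE 0.201, adjusted p = 6.62e-06, edgeR). Mcm6, another subunit of the same helicase, had medians of 14.8 CPM in control mice, 8.82 CPM at PT 40 ppm and 11.1 CPM at PT 80 ppm and was not called there (log2 fold change -0.47, adjusted p = 0.0629, edgeR). Mcm3 had 1.07 CPM in control mice and 0.735 CPM at PT 80 ppm (medians) and, like Mcm7 (-0.04), was not called (-0.52, adjusted p = 0.169, edgeR). The 95% interval of the Mcm7 difference, -0.31 to 0.23, does not reach the fitted value of Mcm2. Pcna, the sliding clamp of the DNA polymerases, had 13.2, 24.7 and 26.9 CPM in control mice and 12.3, 28.1 and 35.5 CPM at PT 80 ppm, with overlapping groups (log2 fold change 0.17, adjusted p = 0.328, edgeR). Cdt1 (0.13), Cdc45 (0.21) and the GINS subunit Gins1 (-0.01) were not called.

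The deoxynucleotide supply list had 4 tested members, of which 2 were called higher. Tk1 (chromosome 11, 117702770 to 117717042), the thymidine kinase of cycling cells, had 3.90, 7.60 and 9.63 CPM in control mice, 2.68, 5.60 and 10.96 CPM at PT 20 ppm, 4.18, 6.83 and 17.3 CPM at PT 40 ppm and 11.7, 16.6 and 51.2 CPM at PT 80 ppm. Each PT 80 ppm mouse was above each control mouse (log2 fold change 1.75, SE 0.354, adjusted p = 0.000185, edgeR). Rrm2 (chromosome 12, 24757811 to 24764145), the subunit of ribonucleotide reductase whose level follows the cell cycle, had 5.15, 6.05 and 9.55 CPM in the control group. At PT 80 ppm the mice of block 1 had 78.9 and 33.5 CPM, those of block 3 had 7.10, 3.65 and 13.2 CPM and those of block 4 had 3.49 and 5.62 CPM. Only 3 of the 7 mice were above the control range and 2 were below it, and the medians were 7.10 and 6.05 CPM. The fitted log2 fold change of 1.48 (SE 0.325, adjusted p = 0.000556, edgeR) was 0.70 (adjusted p = 0.070) without PT 80 ppm mouse 1, the one at 78.9 CPM. Rrm1, the other subunit, which is more stable over the cycle, had medians of 25.2 and 21.2 CPM (log2 fold change -0.19, adjusted p = 0.0998, edgeR). Tyms, thymidylate synthase, had -0.11 (SE 0.182, adjusted p = 0.755).

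Among the G1 cyclins, kinases and E2F factors, 1 of 7 tested members changed. Ccnd2 (chromosome 6, 127102125 to 127129156), cyclin D2, had 5.34, 6.05 and 7.14 CPM in control mice and 2.37, 4.41 and 5.68 CPM at PT 80 ppm. The ranges overlapped in their ends (log2 fold change -0.51, SE 0.155, adjusted p = 0.0128, edgeR), and without PT 80 ppm mouse 1, the lowest, the value was -0.40 (adjusted p = 0.0725). Ccnd1, cyclin D1, which takes hepatocytes into the cycle, had 1.38, 2.61 and 4.04 CPM in control mice and 0.245, 1.55 and 2.72 CPM at PT 80 ppm. Its log2 fold change of -0.94 (SE 0.360) did not pass the test (adjusted p = 0.0577, edgeR). Cdk4, the partner kinase of the D cyclins, had medians of 123.7 CPM in control mice, 177.6 CPM at PT 40 ppm and 137.5 CPM at PT 80 ppm. Its FT and MT medians, between 150.9 and 170.4 CPM, were all above the control median. These medians are not adjusted for isolator. RNA of 2 control mice and of no PT mouse was isolated at the EPA, and Cdk4 was lower in EPA mice. The fitted log2 fold change of Cdk4 was 0.01 at PT 80 ppm. Ccnd3 (-0.12), Ccne1 (-0.11), Ccne2 (0.50) and Cdk2 (-0.36) were not called, with adjusted p between 0.111 and 0.865 (edgeR).

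The promoters of the members at both ends of this pattern are shown, since the genes of G2 and mitosis are known to share a CCAAT box and a CHR element, and genes of S phase an E2F site. Windows were taken from RefSeq on GRCm38.p6, an older build than that of the counts, so their positions cannot be set against the gene positions above, and each runs 5′ to 3′ on the strand of the gene from 250 bases before its start to 50 after it. Capitals mark, on either strand, the CCAAT box (CCAAT), the CHR (TTTGAA or TTCGAA) and the E2F core (TTCCCGC or TTCGCGC or TTGGCGC or TTGCCGC). The second form of the CHR reads the same on both strands, and the third form of the E2F core, read on the opposite strand, can overlap a CCAAT box. The first 4 windows are of members that were lower at PT 80 ppm (Mki67 and Ccnb1 only with no limit on low counts) and the last 2 of those that were higher.
Top2a, chr11:99024140-99024439, minus strand: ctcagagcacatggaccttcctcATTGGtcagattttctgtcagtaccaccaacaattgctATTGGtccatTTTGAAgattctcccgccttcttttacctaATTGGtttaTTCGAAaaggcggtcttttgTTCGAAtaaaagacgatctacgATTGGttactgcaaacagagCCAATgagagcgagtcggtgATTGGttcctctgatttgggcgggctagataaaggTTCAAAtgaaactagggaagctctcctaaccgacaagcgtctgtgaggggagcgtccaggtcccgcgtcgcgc
Cdc20, chr4:118437294-118437593, minus strand: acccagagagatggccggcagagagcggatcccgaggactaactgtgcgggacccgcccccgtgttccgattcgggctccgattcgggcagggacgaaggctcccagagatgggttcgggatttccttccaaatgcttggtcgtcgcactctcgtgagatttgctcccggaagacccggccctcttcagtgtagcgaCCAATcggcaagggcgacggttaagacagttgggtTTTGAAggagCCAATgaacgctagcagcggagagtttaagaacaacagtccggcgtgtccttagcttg
Mki67, chr7:135716330-135716629, minus strand: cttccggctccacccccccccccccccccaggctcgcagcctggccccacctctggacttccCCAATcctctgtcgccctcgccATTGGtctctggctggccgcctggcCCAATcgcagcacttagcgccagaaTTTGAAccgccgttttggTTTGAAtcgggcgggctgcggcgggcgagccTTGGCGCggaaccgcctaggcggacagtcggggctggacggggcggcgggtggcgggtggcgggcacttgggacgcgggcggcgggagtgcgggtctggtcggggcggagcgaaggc
Ccnb1, chr13:100786437-100786736, minus strand: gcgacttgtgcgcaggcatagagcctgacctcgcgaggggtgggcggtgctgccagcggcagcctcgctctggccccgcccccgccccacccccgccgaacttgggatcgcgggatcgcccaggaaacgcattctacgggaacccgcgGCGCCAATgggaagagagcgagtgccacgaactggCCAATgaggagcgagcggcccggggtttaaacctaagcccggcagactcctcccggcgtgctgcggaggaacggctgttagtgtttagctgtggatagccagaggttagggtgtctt
Tk1, chr11:117825965-117826264, minus strand: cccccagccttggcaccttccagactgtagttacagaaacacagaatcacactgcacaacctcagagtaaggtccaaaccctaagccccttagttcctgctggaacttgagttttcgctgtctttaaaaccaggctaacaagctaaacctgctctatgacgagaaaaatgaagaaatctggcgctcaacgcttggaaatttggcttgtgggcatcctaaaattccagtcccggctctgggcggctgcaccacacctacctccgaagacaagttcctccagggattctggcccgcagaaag
Rrm2, chr12:24708004-24708303, plus strand: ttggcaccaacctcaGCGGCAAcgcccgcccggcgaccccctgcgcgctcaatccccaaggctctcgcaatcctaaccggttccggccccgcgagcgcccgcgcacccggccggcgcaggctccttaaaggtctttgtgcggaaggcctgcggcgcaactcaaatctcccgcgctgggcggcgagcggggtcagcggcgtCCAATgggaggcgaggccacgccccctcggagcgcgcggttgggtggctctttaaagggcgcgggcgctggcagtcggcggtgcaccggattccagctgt

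The Top2a window held 6 CCAAT and 4 CHR matches, with the nearest CHR 23 bases before the start, and the Cdc20 window held 2 CCAAT matches and a CHR 18 bases before the start. The Mki67 window held 3 CCAAT matches, 2 CHR matches and 1 E2F core, and that of Ccnb1 held 2 CCAAT matches and 1 E2F core that overlaps one of them. None of these letters was found in the Tk1 window, and the Rrm2 window held 1 CCAAT and 1 E2F core. Windows were found for 31 of the 39 members (34 windows in all). Of the 13 members that were lower at PT 80 ppm with or without the limit on low counts, 10 had a window (10 windows). Aurkb, Ccna2 and Ccnd2 had no window, so the shares below leave them out. The 2 members that were higher had 2 windows. A CHR match was present in 7 of the 10 and 0 of the 2, in 6 of the 22 windows of members that were not called (27.3%), and in 19.2% of all 32851 windows of this length. A CCAAT box was present in 9 of the 10, in 1 of the 2, in 15 of the 22 (68.2%) and in 37.4% of all windows. An E2F core was present in 3 of the 10, in 1 of the 2, in 12 of the 22 (54.5%) and in 9.57% of all windows. A match in letters is no evidence of a bound factor.

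The size of the PT 80 ppm difference varied between the experimental blocks for some members, in a share near that of all tested genes. With a term for the PT 80 ppm difference in each block, a comparison chosen after the data were seen, 5 of 26 members differed between blocks (Rrm2, Cdc45, Cdk4, Pcna and Ccnd1), beside 19.5% of all tested genes. Rrm2 was 7.91-fold higher in block 1 (log2 fold change 2.98, SE 0.269) but had 0.25 (SE 0.275) in block 3 and -0.51 (SE 0.348) in block 4, and the difference between blocks had an adjusted p of 5.92e-12 (edgeR). Ccnd1 was 6.22-fold lower in block 1 (log2 fold change -2.64, SE 0.631) and had -0.56 and -0.43 in blocks 3 and 4 (difference between blocks, adjusted p = 0.0452). Top2a had -3.63 (SE 0.652), -2.06 (SE 0.419) and -1.52 (SE 0.488) in blocks 1, 3 and 4, and these did not differ beyond the test (adjusted p = 0.145).

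Mcm2, Ccna2, Cdc20 and Tk1 had the same direction in the 3 blocks. Mcm2 had fitted log2 fold changes of -1.28, -1.17 and -1.21 (SE 0.331, 0.269 and 0.328), Ccna2 of -1.53, -1.48 and -1.50 (SE 0.622, 0.492 and 0.593), and Cdc20 of -3.28, -2.50 and -2.55. Tk1 had 2.17, 1.31 and 1.85. The ratios of mean levels within blocks spread more than the fitted values, at -1.46 in block 1 and -1.15 in block 4 on the log2 scale for Mcm2 and -1.87, -1.13 and -1.36 in blocks 1, 3 and 4 for Ccna2. Within single blocks 12 members passed in block 1 (30.9% of all tested genes), 3 in block 3 (6.71%) and 4 in block 4 (3.66%), each on 2 or 3 mice a group with the spread taken from all 84 mice. Mcm2 and Cdc20 passed in all 3 blocks.

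**Figure D3:**
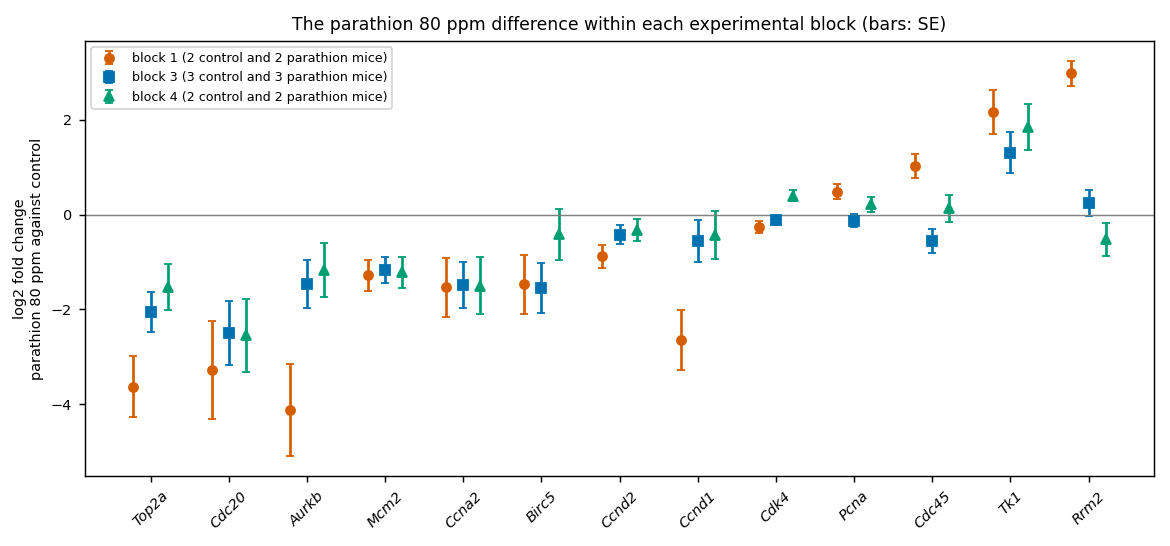
Fitted log2 fold change at PT 80 ppm against control (y axis, bars are SE) in experimental blocks 1, 3 and 4 for 13 members (x axis). The control level of each block is fitted from all control mice and a block shift shared by all groups but PT 80 ppm. Mcm2 and Ccna2 have nearly the same fitted value in each block, while Rrm2 runs from 2.98 in block 1 to -0.51 in block 4 and Ccnd1 lies lowest in block 1 at -2.64.

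Over the PT doses the changes lay mainly at 80 ppm. Against control, 0 of 26 members passed at PT 20 ppm (1 with an unadjusted p under 0.05; 0.0096% of all tested genes called) and 0 at PT 40 ppm (4 with an unadjusted p under 0.05; 0% of all tested genes called). In a linear trend over 0, 20, 40 and 80 ppm, 11 members passed, 9 falling and 2 rising, beside 23% of all tested genes. Ccnd1 (-1.07 over the dose range, SE 0.345, adjusted p = 0.0165), Mcm6 (-0.54, adjusted p = 0.0196) and Rrm1 (-0.20, adjusted p = 0.0463) passed in the trend beside 8 of the 9 members called at PT 80 ppm, while Birc5 did not (-0.93, adjusted p = 0.0582). The trend call was lost in 16 of 22 alternative fits for Rrm1, in 4 for Mcm6 and in 3 for Ccnd1. In the test of any difference over the PT doses 10 members passed (19.6% of all tested genes), among them the E cyclin Ccne2 (adjusted p = 0.00479), whose medians were 4.46 CPM in control mice, 2.59 CPM at PT 40 ppm and 6.53 CPM at PT 80 ppm, so that it did not move in 1 direction.

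With the PT 20 and 40 ppm mice in place of the control, which leaves the control mice out and was chosen after the data were seen, 9 members passed at PT 80 ppm (25.7% of all tested genes). Top2a (-1.66), Mcm2 (-1.01), Cdc20 (-1.98), Aurkb (-1.11), Ccna2 (-1.02), Ccnd2 (-0.48), Tk1 (1.58) and Rrm2 (1.51) passed again. Birc5 did not (-0.56, adjusted p = 0.229), and Ccne2 passed in its place.

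No member passed the test in any FT or MT group. Against the same control mice, 0 of 26 passed at FT 2.5 ppm (0.0096% of all tested genes), FT 5 ppm (0%), FT 10 ppm (1.57%), FT 20 ppm (0%), MT 10 ppm (0%), MT 25 ppm (0%), MT 50 ppm (0.0096%) and MT 100 ppm (0.0768%), with between 0 (MT 50 ppm) and 6 (FT 10 ppm) members at an unadjusted p under 0.05. At FT 10 ppm the 95% intervals, not adjusted for the number of genes, left out 0 for Mcm3 (-1.48 to -0.40, adjusted p = 0.0571), Plk1 (0.49 to 1.94, adjusted p = 0.0698) and Pcna (0.12 to 0.57, adjusted p = 0.0863), and without the isolator term 3 members passed there (Cdk4 and Pcna higher, Mcm3 lower). With DESeq2, 1 member passed at FT 10 ppm (Pcna, higher) and 0 in the other FT and MT groups. In the trend and in the test over all doses 0 members passed for FT (0% and 0.0768% of all tested genes) and 0 for MT (0.0672%, of which 0.0576% higher, and 0.0864%).

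The Top2a medians of the FT and MT groups ran from 2.14 CPM (FT 2.5 ppm) to 4.28 CPM (FT 10 ppm), around the control median of 2.75 CPM and all above the PT 80 ppm median of 0.817 CPM. Its log2 fold change was 0.07 at FT 20 ppm (95% interval -0.45 to 0.58) and 0.10 at MT 100 ppm (-0.42 to 0.62). Mcm2 had -0.20 at FT 20 ppm (-0.55 to 0.16) and -0.39 at MT 100 ppm (-0.75 to -0.03, adjusted p = 0.324). The Tk1 medians of these groups were between 5.06 and 9.82 CPM, and those of Rrm2 between 6.73 and 10.7 CPM. For Rrm2 they were all above the control median, and the PT 80 ppm median of 7.10 CPM lay within their range.

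**Figure D4:**
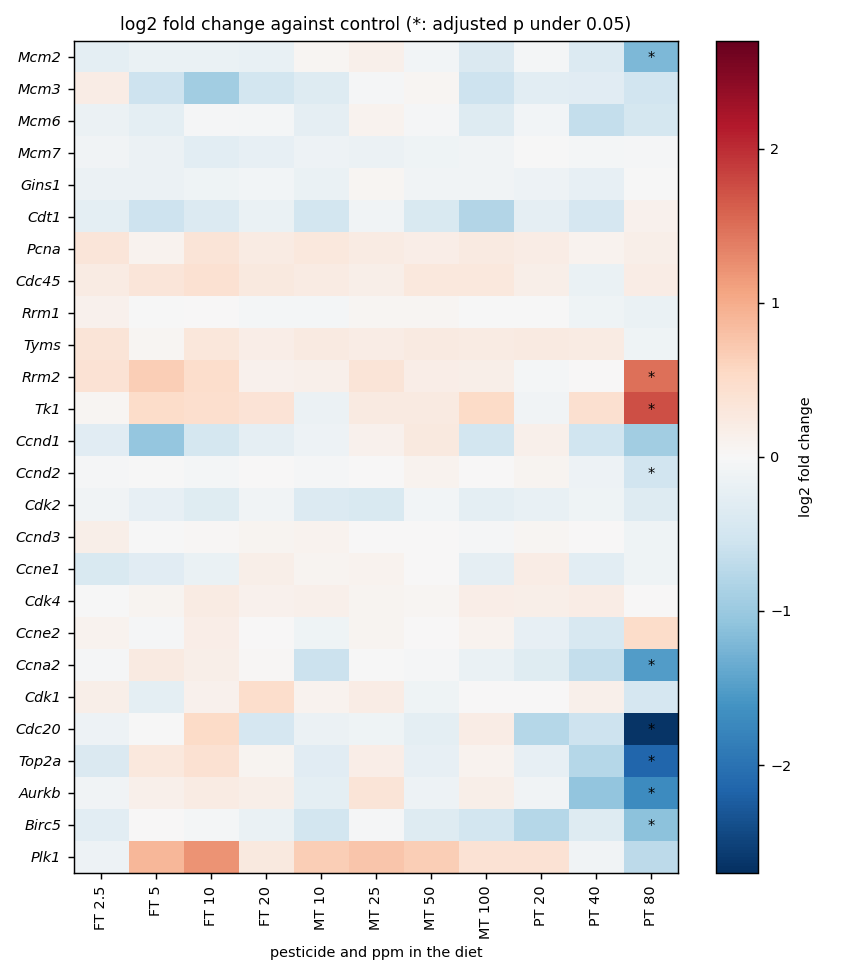
Log2 fold change against control (colour) of the 26 tested members (rows) in the 11 dosed groups (columns, pesticide and ppm in the diet), with stars for adjusted p under 0.05. Stars appear in the PT 80 ppm column alone, on 9 members, and all columns share the same 7 control mice.

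The OPPs were compared at the only matched doses, FT against MT at 10 ppm and PT against FT at 20 ppm. In neither of these 2 pairs did a member pass (0 of 26 each; 0% of all tested genes in each), with 3 members at an unadjusted p under 0.05 in the first and 0 in the second. At 10 ppm Top2a had a log2 difference of 0.73 with FT over MT (95% interval 0.20 to 1.25, not called), Ccna2 0.74 (adjusted p = 0.608) and Mcm3 -0.60 (adjusted p = 0.632). At 20 ppm, where the diethyl PT and the dimethyl FT met, Top2a had -0.28 with PT over FT (95% interval -0.81 to 0.26) and Mcm2 0.16 (-0.21 to 0.53). For Top2a these intervals leave room for log2 differences of up to 1.25 at 10 ppm and 0.81 in size at 20 ppm. PT at 80 ppm had no matched dose of another OPP.

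Apart from the diets, 14 of 26 members differed between the experimental blocks (39.9% of all tested genes), led by Tk1 (adjusted p = 2.8e-06, edgeR), with medians of 11.2, 7.22 and 5.48 CPM in blocks 1, 3 and 4. The licensing factor Cdt1 was likewise highest in block 1 (medians 1.88, 1.03 and 1.10 CPM), as was Cdk4 (182.7, 152.7 and 156.8 CPM). Mcm6 (10.7, 12.5 and 14.5 CPM) and Cdc20 (0.726, 1.13 and 1.26 CPM) were lowest there. Between isolators 3 members differed (38.7% of all tested genes). Cdk4 was lower in EPA mice (log2 difference -0.39, SE 0.0764, medians 122.4 and 160.8 CPM), Ccnd3 was lower (-0.19) and Cdc45 was higher (0.42).

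Of 61 other tested genes of the cycle, listed by role, 16 changed at PT 80 ppm (26.2%), 12 lower and 4 higher, beside 18.6% of all tested genes (8.89% lower and 9.73% higher). Of the replication fork and origin genes 6 of 27 changed (22.2%, near the share of all tested genes), all lower, with a median log2 fold change of -0.20. The 4 with the smallest p were the clamp loader subunit Rfc3 (-0.48), Dbf4, the partner of the Cdc7 kinase that fires origins (-0.71, SE 0.183, adjusted p = 0.00346), the single-strand binding protein subunit Rpa1 (-0.32) and the polymerase delta subunit Pold2 (-0.58). Of the mitosis genes 6 of 12 changed, 5 lower and 1 higher. Among the 4 with the smallest p, Prc1, which bundles the central spindle (-2.16, SE 0.436, adjusted p = 0.000178), the condensin subunit Smc2 (-0.79) and the kinesin Kif20a (-1.02) fell, while Cdc25a, a phosphatase that activates cyclin-dependent kinases, rose (0.94, SE 0.224, adjusted p = 0.00128). Of 14 other cyclins, kinases and E2F factors E2f6, a repressing factor, fell (-0.42) and E2f7, another repressor, rose (1.66).

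Of 8 inhibitors and pocket proteins 2 changed, too few to set apart from the 18.6% of all tested genes, both higher: Cdkn1a, which encodes the inhibitor p21, and Cdkn1b, which encodes p27 (0.36, adjusted p = 0.0354). Cdkn1a had a log2 fold change of 2.41 (SE 0.696, adjusted p = 0.00914), but its medians were 1.09 CPM in control mice and 1.08 CPM at PT 80 ppm, where 1 mouse had 26.8 CPM and the next 2.19 CPM. E2f7 was at 17.2 CPM in this same mouse (PT 80 ppm mouse 1) and at 3.60 CPM or less in the others. That mouse also had the highest Rrm2 and the lowest Top2a level of its group.

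Some markers of other cell types were lower at PT 80 ppm, in lists too short to read against the 8.89% of all tested genes that were lower, and their part in these results was not tested. Of the Kupffer cell markers 2 of 4 tested were lower at PT 80 ppm, and the sum of the 6 listed ran from 9.07 to 85.2 CPM, beside 66.3 to 137.9 CPM in the control group. Most of this sum was Cd5l (mean 76.7 CPM over all mice, with Clec4f next at 6.77 CPM), so it follows that gene more than the list. PT 80 ppm mouse 1 had the lowest sum, and the other 6 mice had 43.6 to 85.2 CPM. Of the erythroid markers 1 of 2 tested was lower (Alas2, the erythroid haem synthesis enzyme, with a log2 fold change of -1.38). The sum of 4, over all mice mostly Alas2, ran from 1.06 to 6.07 CPM beside 3.84 to 11.5 CPM. Of the T cell markers 1 of 2 was lower (Cd4), with sums of 6 genes of 1.14 to 6.45 and 3.67 to 8.52 CPM and Cd8a at a median count of 0. Neutrophil, B cell, stellate, endothelial and cholangiocyte markers were not called at PT 80 ppm (of the last none was tested, and Epcam had a median count of 0). The sum of the hepatocyte markers ran from 43730 to 60320 CPM in control mice and from 39440 to 59220 CPM at PT 80 ppm, with 2 of 7 lower (Fga and Fgb). Without PT 80 ppm mouse 1, Top2a had -1.97 (adjusted p = 7.79e-06), and Mcm2, Cdc20, Aurkb, Ccna2 and Tk1 were called as before.

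Mki67 and Top2a were also compared over single mice on log2(CPM + 1). Over the 84 animals, Pearson's r was 0.610 and Spearman's rho 0.530 (permutation p = 1e-05 for each, the smallest that 100000 resamples can give). With the 2 mice farthest from the Mki67 median left out, r was 0.530, and without the PT 80 ppm mice it was 0.526 (77 mice). Within blocks 1, 3 and 4 it was 0.451, 0.637 and 0.602 (permutation p = 0.027, 3e-05 and 0.00174; 24, 36 and 24 mice). Spearman's rho within them was 0.344, 0.524 and 0.591 (permutation p = 0.0998, 0.00139 and 0.00269), so that the rank relation did not pass in block 1. After subtracting group, block and isolator r was 0.520 and rho 0.389 (permutation p = 1e-05 and 0.0003), so the mice of 1 group that had more Mki67 also tended to have more Top2a.

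Of 3 further pairs, chosen after the data were seen and adjusted together with the first, Top2a and Cdc20 had r = 0.676 (rho 0.623) over all mice and 0.472 (rho 0.468) after subtracting group, block and isolator (permutation p = 1e-05, adjusted 2e-05 for both values of r). With the 2 mice farthest from the Top2a median left out, r was 0.666. Tk1 and Rrm2, the members called higher, had r = 0.296 (permutation p = 0.00829, adjusted 0.00829) and rho = 0.0231 (permutation p = 0.835, adjusted 0.835) over all mice, and r = 0.0016 (rho 0.0041) without the PT 80 ppm mice, so that the relation rested on those. With the 2 mice farthest from the Tk1 median left out, r was 0.227. Tk1 and Top2a had r = -0.442 (rho -0.368) over all mice, -0.402 when the 2 farthest from the Tk1 median were left out and -0.102 (rho -0.126, permutation p = 0.355 for r, adjusted 0.473) after subtracting group, block and isolator.

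**Figure D5:**
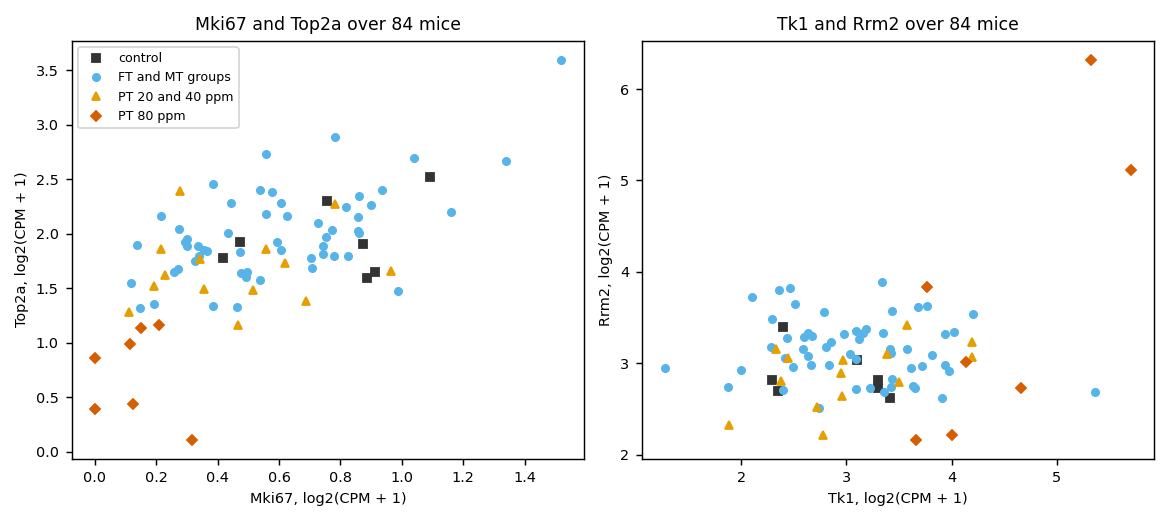
Levels in the 84 mice as log2(CPM + 1), with Mki67 against Top2a (left) and Tk1 against Rrm2 (right), coloured by control, FT and MT, lower PT and PT 80 ppm groups. On the left the points rise together (r = 0.610) and the PT 80 ppm mice lie at the low end of both genes, while on the right 2 PT 80 ppm mice high in both genes stand apart.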

How the data were processed

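TempO-Seq libraries from 84 livers (12 groups, 7 mice each) entered the analysis, and the sample labels gave group, block and RNA isolator. After trimming, the authors used STAR for alignment on mm39 and the E/M method of Partek for Ensembl genes, and deposited estimated counts per gene without normalization (18.7% of them not whole). The deposited log2 values, adjusted for block and isolator by the authors, were not used here. Gene names (17660 of 17695) and positions came from GENCODE on GRCm39, the same assembly as mm39.

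Counts were rounded, scaled by TMM (factors 0.846 to 1.13) and tested with edgeR 4.0.16 (quasi-likelihood test) in 1 model of group, block and isolator over all mice, restricted to the 10415 genes whose median count exceeded 8, with Benjamini-Hochberg adjustment over them. A call is an adjusted p under 0.05. In R 4.3.3, alternatives used limma 3.58.1 or DESeq2 1.42.0, with other filters, scaling and covariates, left-out mice, and mice of the pesticide compared alone. Other values were computed with Python, numpy, pandas and scipy. The fits were tested on simulated data.

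Mice are numbered in accession order within a group, and the blocks come from the labels. Block entered the main model as a shift shared by all groups, so mice were not compared only with the control mice of their own block. The closest 2 mice had a correlation of log2 levels across genes of 0.993, and none had identical counts. Each sample is a separate mouse, and p-values measure the spread between mice. The paper states that mice shared cages and that whole cages were assigned to the diets. The cage of each mouse was not known here, so cages were not modelled and the p-values may be too small. A count of 0 allows up to 3 counts, or 0.196 to 0.432 CPM by the depth of the mouse, which covers counting error only, since reads without molecular identifiers are not independent molecules.

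The members and lists were chosen with earlier results of these data known. Named were the called members, the highest and lowest tested member of each role list by mean CPM, and Mki67, Top2a, Pcna, Ccnd1, Cdk1 and Ccnb1. Other members are given by value where a count or list is described, and were chosen after their values were seen.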

Additional observations from a re-analysis of the deposited data

Results flagged for a closer look

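In 132 group levels of 11 members (the called ones, Mki67 and Ccnb1, 7 mice each), 12 held a mouse that stood apart by Dixon's test, each time the highest one. Chance flags about 1 in 20 where values are normally spread, but these were CPM without logs at low counts. The same mouse could also be flagged for several genes, so the 12 flags cannot be set against that rate. Fenthion groups held 8 of them. At FT 5 ppm, 1 mouse had 11.1 CPM of Top2a (next 3.73), 3.39 CPM of Aurkb and 1.86 CPM of Mki67, and all of these were mouse 3. At FT 10 ppm, mouse 7 had 4.50 CPM of Ccna2, 4.12 CPM of Birc5, 1.05 CPM of Mki67 and 4.41 CPM of Ccnb1, while another, mouse 2, had 40.1 CPM of Tk1 (next 7.67). The others were Top2a at MT 100 ppm (6.39 CPM, next 3.10), Ccnb1 at PT 20 ppm (1.08 CPM) and PT 40 ppm (0.985 CPM, next 0.190), and Rrm2 at PT 80 ppm (78.9 CPM, next 33.5).

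The PT 80 ppm difference from control varied between blocks 1, 3 and 4 for Rrm2 (adjusted p = 5.92e-12, edgeR interaction term), Cdc45 (0.000498), Cdk4 (0.00194), Pcna (0.0307) and Ccnd1 (0.0452). The share of members that varied was near the 19.5% of all tested genes. Cdc45 had log2 fold changes of 1.03, -0.55 and 0.13 in blocks 1, 3 and 4, Cdk4 of -0.25, -0.11 and 0.40, and Pcna of 0.49, -0.12 and 0.22.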

How the results depend on the processing

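Of 449 values of the members called at PT 80 ppm or in the PT trend under the alternatives, 414 kept direction and call, 35 kept direction and lost the call, and 0 turned. Without a limit on low counts, 15 members were called at PT 80 ppm, 16 over the PT doses and 17 in the PT trend (of 39 tested), since more members were tested. At FT 10 ppm, 1 member was called with DESeq2 and 3 without the isolator term (Cdk4, Pcna and Mcm3), and over the FT doses 1 without it; the cause was not tested. With each control mouse left out the FT 10 ppm count lay between 0 and 1, as did that over the FT doses (1 without control mouse 7 in both and without control mouse 2 at FT 10 ppm), the PT 80 ppm count between 8 and 11, that over the PT doses between 10 and 12 and that of the PT trend between 9 and 11. With each PT 80 ppm mouse left out these PT counts lay between 6 and 12, 8 and 13 and 9 and 14, the lowest at PT 80 ppm being without mouse 1, when Rrm2, Ccnd2 and Birc5 were lost. Without the block term 8 members were called at PT 80 ppm, with Birc5 lost (log2 fold change -1.06, adjusted p = 0.0516, edgeR), and 9 in the trend, with Mcm6 and Rrm1 lost. With control and PT mice alone 7 members were called at PT 80 ppm, without Birc5 and Rrm2 (1.29, adjusted p = 0.0736). With limma, Ccnd2 was lost (-0.35, adjusted p = 0.055). In the trend Ccnd1 was lost in 3 alternatives, Mcm6 in 4 and Rrm1 in 16 of 22. The levels of mitotic members at PT 80 ppm, at counts of 0 to 16, limit how exactly their changes are known.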
